A study of Homo sapiens with 9 samples.

Results

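The splicing regulators described here are the protein-coding genes whose symbols name an SR splicing factor (SRSF), a TRA2 protein, a heterogeneous nuclear ribonucleoprotein (HNRNP), a subunit of splicing factor 3A or 3B (SF3A, SF3B), a U2AF protein, or a member of the PTBP, RBFOX, MBNL or QKI families. That rule found 63 of the 58735 genes in the table, and it used names only, no measured value. Of these, 56 had enough counts for a test across libraries and 7 did not. Polyadenylated RNA was sequenced from PANC-1, an established human pancreatic carcinoma cell line, in 9 libraries that form 3 groups of 3. The ACSS2-KO-2 and ACSS2-KO-3 groups are labelled as knockouts of ACSS2, a nucleocytosolic acetyl-CoA synthetase that uses acetate, and the third group is labelled NC. No further treatment is given for any group in the titles. The labels do not say what the numbers 2 and 3 or the letters NC stand for, whether each knockout is 1 clone, or whether replicates came from separate cultures, so the p-values below measure only the spread between libraries, which may be technical.

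Splicing removes introns through the spliceosome, a machine of small nuclear ribonucleoproteins (snRNPs) and proteins that assembles on each intron anew. U2AF binds the end of the intron, SF3A and SF3B hold the U2 snRNP at the branch site, and SR and hnRNP proteins bind exons and introns nearby and raise or lower the use of a splice site; SR proteins mostly promote and hnRNP proteins often repress it. PTBP, RBFOX, MBNL and QKI proteins set tissue-specific splicing patterns. Many of these genes control their own mRNA by including an exon, or by splicing within the last exon, so that the transcript is destroyed by nonsense-mediated decay, and a gene-level count adds such transcripts to the productive ones.

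Between 14756572 and 17457190 reads were counted per library. Levels are counts per 1000000 reads (CPM) after scaling by trimmed mean of M values (TMM). ACSS2 itself was at 15.1, 14.7 and 12.4 CPM in the ACSS2-KO-2 libraries and at 7.19, 8.57 and 8.50 CPM in the ACSS2-KO-3 libraries, against 33.3, 30.6 and 28.3 CPM in the NC libraries, so it was lower in both knockouts and absent in neither. The 7 listed markers of PANC-1 and duct cells summed to 8693 to 9537 CPM in ACSS2-KO-2, 10284 to 11213 CPM in ACSS2-KO-3 and 9557 to 9912 CPM in NC, and none of them was at 0 in any group. Immune and endothelial markers summed to at most 0.657 CPM in any library. In bulk RNA, a change in the make-up of the culture and a change in RNA per cell cannot be told apart.

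Few splicing regulators differed between ACSS2-KO-2 and NC, and most differed between ACSS2-KO-3 and NC. In ACSS2-KO-2, 4 of the 56 tested members passed an adjusted p of 0.05 in edgeR's quasi-likelihood test (7.14%), where the same test called 6.65% of all 15811 genes tested. MBNL3, HNRNPA0 and SRSF9 were called higher and U2AF1L5 lower, where 3.81% of all genes were called higher and 2.84% lower. MBNL3 passed the filter on low counts only through ACSS2-KO-2, so its call is no support for a difference. With the offsets described below 6 passed, 4 higher and 2 lower, beside 9.65% of all genes (5.51% higher and 4.14% lower). Some tested members not called as counted also had no overlap with NC, in both directions. PTBP1, SF3B3, HNRNPA1, HNRNPAB, HNRNPD, HNRNPM and HNRNPU lay above every NC library. PTBP2, SRSF5, SRSF6, TRA2A, HNRNPA2B1, HNRNPF, HNRNPH2 and HNRNPL lay below every NC library. The share of all genes without overlap was not analysed here, so these positions are no support for a difference. In ACSS2-KO-3, 45 of 56 members passed (80.4%), where the background was 63.3% of all tested genes. Higher and lower calls numbered 27 and 18 members, and over all genes 31.2% were called higher and 32.1% lower. The members are abundant genes, and among genes averaging at least 20 CPM the difference from the background was smaller, with 42 of 49 members (85.7%) and 78.9% of all genes called. The NC libraries serve both comparisons, which are therefore not independent.

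The ACSS2-KO-3 libraries also differed from the others in a way that ran across the whole transcriptome. Genes whose transcripts are poor in G and C were lower and GC-rich ones higher, and the direction of several members turned when this was corrected with offsets, curves of transcript GC content and length fitted to each library. With the offsets, 37 members were higher and 9 lower in ACSS2-KO-3 than in NC, beside 59.8% of all genes called, 35.6% higher and 24.2% lower, so that 80.4% of the members' calls were higher, against 60.0% without them. Over all genes 59.5% of the calls were higher with the offsets and 49.4% without. The members' median log2 fold change was 0.27 with offsets and 0.10 without, beside 0.053 and -0.037 over all tested genes. All 27 members that rose without the offsets also rose with them, whereas of the 18 that fell, 8 also fell with them, 4 rose and 6 did not pass. Both values are therefore given for the members described below whose direction or call differs between the fits.

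**Figure D1:**
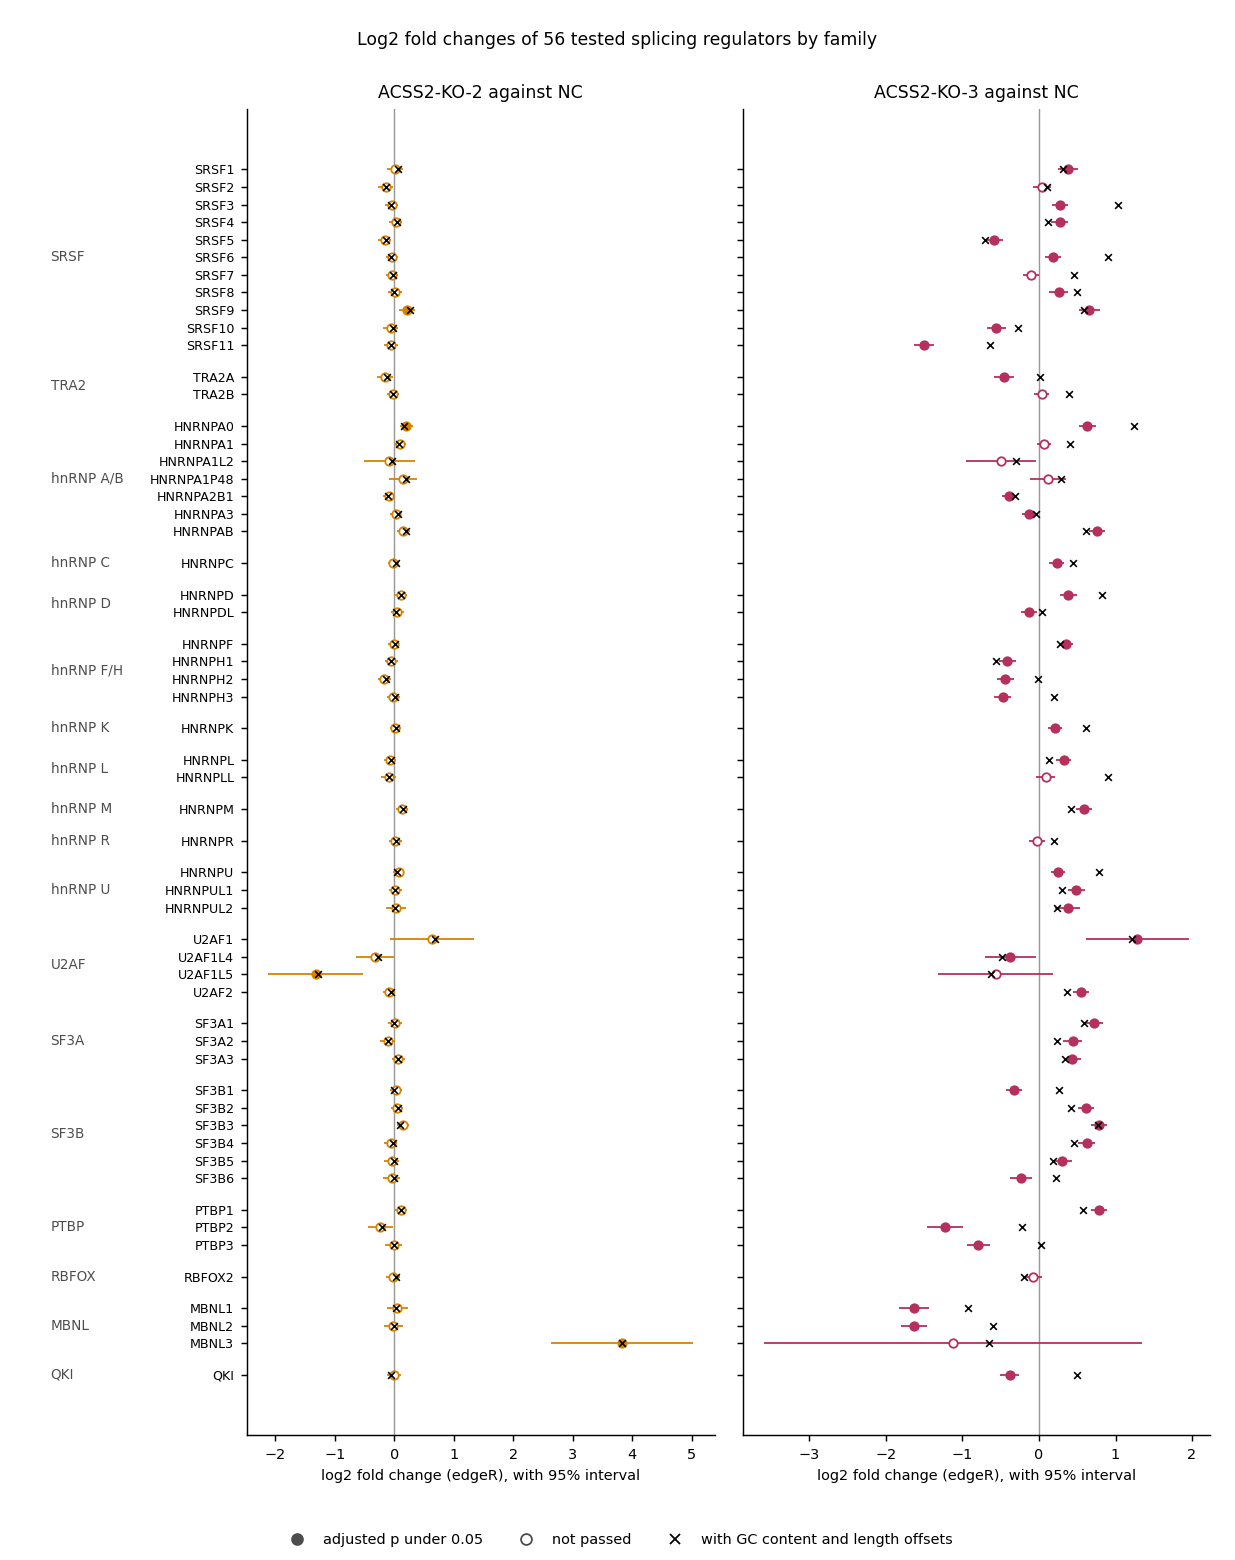
Log2 fold change of each tested splicing regulator, arranged by family, in ACSS2-KO-2 (left) and ACSS2-KO-3 (right) against NC. Circles with lines are edgeR estimates with 95% intervals, filled where the adjusted p was under 0.05 (4 members on the left, 45 on the right), and crosses are the estimates with GC content and length offsets, which lie on the other side of 0 for members such as QKI, SF3B1, SF3B6 and HNRNPH3 on the right; the x axes of the 2 panels differ in range.

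The SR proteins rose and fell in ACSS2-KO-3. Of the 11 tested SRSF genes, 6 rose (SRSF1, SRSF3, SRSF4, SRSF6, SRSF8 and SRSF9), 3 fell (SRSF5, SRSF10 and SRSF11), and SRSF2 and SRSF7 did not pass. The 81.8% of the family that passed stood beside 63.3% of all genes, or 78.9% of those averaging at least 20 CPM. With the offsets, SRSF7 joined the genes that rose and the same 3 fell, beside 35.6% of all genes higher and 24.2% lower. The summed level of the family was 1946 ± 21.8 CPM in ACSS2-KO-3 and 2002 ± 65.6 CPM in NC (SD, n = 3 each), so the opposite movements left the total close to that of NC. In ACSS2-KO-2 the sum was 1944 ± 50.4 CPM, and SRSF9 of the 11 passed (9.09%, beside 6.65% of all genes). SRSF5 missed the threshold there as counted and fell with the offsets (log2 fold change -0.15, adjusted p = 0.046, edgeR) or without ACSS2-KO-2 replicate 1 (-0.205, adjusted p = 0.0357, edgeR).

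SRSF11, an SR-related protein of the nuclear speckles, fell most among them. It was at 79.2, 95.7 and 83.5 CPM in ACSS2-KO-3 and at 249.6, 250 and 233 CPM in NC. Every ACSS2-KO-3 library lay below every NC library, by more than the range within either group. The log2 fold change was -1.50 ± 0.062 (SE; adjusted p = 4.11e-17, edgeR), and -0.64 with the offsets (adjusted p = 3.48e-13). In ACSS2-KO-2, at 243, 225 and 236 CPM, SRSF11 overlapped NC.

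SRSF10, which turns from a weak activator into a splicing repressor when dephosphorylated, had the highest level per length of the SRSF genes in NC, at 128 ± 7.87 CPM per kilobase. It was at 135, 158 and 134 CPM in ACSS2-KO-3 and 223, 208 and 197 CPM in NC, and the groups did not overlap. Its log2 fold change was -0.55 ± 0.062 (adjusted p = 1.1e-08, edgeR), or -0.27 with the offsets. SRSF5, an activator whose level is known to follow growth signals, averaged 82.1 ± 0.563 CPM in ACSS2-KO-3 and 123 ± 1.77 CPM in NC. Its transcript has a middling GC content (48.95%), and its log2 fold change was about as large with the offsets (-0.70) as without (-0.58).

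SRSF9, a small SR protein, rose in both knockouts. Its levels were 82.9, 88.2 and 79.7 CPM in ACSS2-KO-2, 110.2, 114 and 116 CPM in ACSS2-KO-3, and 64.2, 72.1 and 78.9 CPM in NC. The 3 groups did not overlap, although the lowest ACSS2-KO-2 library (79.7 CPM) lay just above the highest NC library. The log2 fold change of SRSF9 in ACSS2-KO-3 was 0.66 ± 0.065 (adjusted p = 1.34e-09, edgeR). In ACSS2-KO-2 it was 0.22 ± 0.066 (adjusted p = 0.0425, edgeR), and this call was lost without NC replicate 1 (0.261), NC replicate 2 (0.109), ACSS2-KO-2 replicate 1 (0.0748) or ACSS2-KO-2 replicate 2 (0.223), each an adjusted p.

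SRSF3, the smallest SR protein and an adaptor for mRNA export, averaged 479 ± 10.9 CPM in ACSS2-KO-3 and 396 ± 19.8 CPM in NC. SRSF6, an activator of exon inclusion, averaged 218 ± 5.77 CPM in ACSS2-KO-3 and 192 ± 5.83 CPM in NC. Both have AT-rich transcripts (39.3% and 39.6% GC), and both rose: their log2 fold changes of 0.28 and 0.18 became 1.03 and 0.90 with the offsets. Of the TRA2 genes, whose proteins bind purine-rich exon enhancers together with SR proteins, TRA2A was at 78.1 ± 1.63 CPM in ACSS2-KO-3 and 107 ± 11.4 CPM in NC. It fell by 0.46 on the log2 scale, and this call was lost with the offsets (0.010, adjusted p = 0.88). TRA2B did not pass (0.034) and rose with the offsets (0.39, adjusted p = 1.67e-09).

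The hnRNP genes are the largest family of the set, 27 genes of which 22 were tested. In ACSS2-KO-3, 11 rose, 6 fell and 5 did not pass, and with the offsets 16 rose and 2 fell, beside 35.6% and 24.2% of all genes. The 77.3% that passed stood beside 63.3% of all genes, or 78.9% of those averaging at least 20 CPM. Their summed level was 8748 ± 84.1 CPM in ACSS2-KO-3 and 8100.0 ± 23.4 CPM in NC. In ACSS2-KO-2 the sum was 8162 ± 145 CPM, and 1 of 22 passed (4.55%), or 2 with the offsets, beside 6.65% and 9.65% of all genes. The genes that rose in ACSS2-KO-3 in both fits were HNRNPA0, HNRNPAB, HNRNPC, HNRNPD, HNRNPF, HNRNPK, HNRNPL, HNRNPM, HNRNPU, HNRNPUL1 and HNRNPUL2.

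The A/B subfamily, which includes core hnRNPs that coat nascent transcripts, split. HNRNPA2B1, with the highest level per length of that subfamily in NC (403 ± 4.76 CPM per kilobase), had 1054, 1117 and 1048 CPM in ACSS2-KO-3 and 1425, 1408 and 1391 CPM in NC. All 3 ACSS2-KO-3 libraries were lower, and its log2 fold change was -0.39 ± 0.046 (adjusted p = 3.28e-08, edgeR), or -0.31 with the offsets. HNRNPAB, a type A/B protein that also binds DNA, had 494, 484 and 526 CPM in ACSS2-KO-3 and 292, 294 and 303 CPM in NC. The groups stood well apart, and its log2 fold change was 0.76 ± 0.051 (adjusted p = 5.94e-13, edgeR). In ACSS2-KO-2, HNRNPAB was at 346, 324 and 317 CPM, above every NC library but short of the threshold (log2 fold change 0.15, adjusted p = 0.0738, edgeR). It passed there with the offsets (0.19, adjusted p = 0.00229), with RLE scaling and in the fit of only these 2 groups (adjusted p = 0.0416 and 0.0357, edgeR), and in DESeq2 (adjusted p = 0.0234).

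HNRNPA0, a single-exon family member that binds AU-rich elements, was higher in both knockouts. It was at 239.8, 257 and 243 CPM in ACSS2-KO-2, at 330.2, 318 and 348 CPM in ACSS2-KO-3, and at 205, 210.3 and 227 CPM in NC. No 2 of the groups overlapped, and ACSS2-KO-2 lay between ACSS2-KO-3 and NC. The log2 fold change of HNRNPA0 in ACSS2-KO-3 was 0.63 ± 0.054 (adjusted p = 6.66e-11, edgeR), and 1.25 with the offsets. In ACSS2-KO-2 it was 0.20 ± 0.054 (adjusted p = 0.018, edgeR), and that call was lost with the offsets (0.16, adjusted p = 0.0664) and without NC replicate 1, NC replicate 2 or ACSS2-KO-2 replicate 2 (adjusted p = 0.0897, 0.0894 and 0.132, edgeR). HNRNPA1, the best known splicing repressor of the family, did not pass in ACSS2-KO-3 (log2 fold change 0.071) and rose with the offsets (0.41). HNRNPA1P48 likewise passed only with the offsets (0.28, adjusted p = 0.0318, and 0.11 as counted). By name HNRNPA1L2 and HNRNPA1P48 are copies related to HNRNPA1, and how reads were divided among the 3 was not analysed here, so their counts are uncertain.

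The F/H proteins bind runs of G. HNRNPF had 460, 472 and 476 CPM in ACSS2-KO-3 and 366, 368 and 368 CPM in NC. That gap was many times the spread within either group, and the log2 fold change was 0.35 ± 0.046 (adjusted p = 1.6e-07, edgeR). HNRNPH1 fell, from the same test, by 0.41 on the log2 scale (442 ± 30.9 CPM in ACSS2-KO-3, 588 ± 10.6 CPM in NC), and by 0.56 with the offsets. HNRNPH3, an AT-rich relative (39.9% GC), had 108, 111 and 105 CPM in ACSS2-KO-3 and 153, 144 and 154 CPM in NC. As counted all ACSS2-KO-3 libraries were lower, with a log2 fold change of -0.47 ± 0.053 (adjusted p = 1.26e-08, edgeR), but it rose with the offsets (0.20, adjusted p = 0.000641). HNRNPH2 fell by 0.44 as counted but did not pass with the offsets (-0.0075). In ACSS2-KO-2 HNRNPH2 was at 111, 110.4 and 107 CPM, below every NC library, but did not pass (-0.17, adjusted p = 0.0536, edgeR). It passed there in limma-voom (adjusted p = 0.0452) and in the edgeR fit of only these 2 groups (adjusted p = 0.0409).

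Of the other hnRNPs, HNRNPU, which tethers RNA to chromatin, had 760, 763 and 776 CPM in ACSS2-KO-3 and 630.2, 654 and 644 CPM in NC. It rose by 0.25 ± 0.045 on the log2 scale (adjusted p = 1.79e-05, edgeR), and by 0.78 with the offsets. All 3 tested hnRNP U genes rose in both fits, beside 31.2% of all genes called higher as counted and 35.6% with the offsets. HNRNPC, which binds uridine tracts and had the highest level per length of all 63 genes in NC (413 CPM per kilobase), rose by 0.23, and HNRNPK, which binds cytosine runs, by 0.21, on the log2 scale. HNRNPM rose by 0.59, and in ACSS2-KO-2 it passed only with the offsets (0.15, adjusted p = 0.0197, edgeR). HNRNPL, which binds CA repeats, rose by 0.32. HNRNPR did not pass (-0.029) and rose with the offsets (0.20), as did HNRNPLL (0.089 and 0.91). HNRNPD, an AU-rich element binder, rose by 0.39, or 0.82 with the offsets. HNRNPA3 and HNRNPDL fell by 0.13 each, and neither passed with the offsets (-0.038 and 0.043).

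The 9 SF3A and SF3B genes, subunits of the U2 snRNP that recognise the branch site, all passed in ACSS2-KO-3, with 7 higher and 2 lower, and with the offsets all 9 were higher, since SF3B1 and SF3B6 turned. Each is abundant, and 78.9% of all genes averaging at least 20 CPM passed. Over all tested genes 31.2% were called higher and 32.1% lower as counted, or 35.6% and 24.2% with the offsets. Their summed level was 1857.8, 1809.5 and 1875.9 CPM in ACSS2-KO-3 and 1467, 1460.1 and 1444.1 CPM in NC. The sum in ACSS2-KO-2, 1463.8, 1513.5 and 1470.1 CPM, overlapped that of NC. None of the 9 genes passed there in edgeR or limma-voom (1 had an unadjusted p under 0.05 in each), and SF3B3 passed in DESeq2 (adjusted p = 0.045) and in the edgeR fit of only these 2 groups (adjusted p = 0.0479). The median log2 fold change of the 9 was 0.44 in ACSS2-KO-3, or 0.35 with the offsets.

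SF3B3, a scaffold subunit of SF3B, had 287, 267 and 290.4 CPM in ACSS2-KO-3 and 159, 164 and 168 CPM in NC. The lowest ACSS2-KO-3 library was far above the highest NC library, and the log2 fold change of 0.78 ± 0.051 (adjusted p = 4.12e-13, edgeR) was about the same with the offsets (0.77). In ACSS2-KO-2, at 179, 183 and 182 CPM, it was also above every NC library but did not pass (0.15, adjusted p = 0.0924, edgeR). SF3A1 had 185, 169.8 and 179.6 CPM in ACSS2-KO-3 and 99.4, 109.6 and 117 CPM in NC. The groups did not overlap, with a log2 fold change of 0.71 ± 0.059 (adjusted p = 4.46e-11, edgeR). SF3A3, of the highest level per length in SF3A, had 173, 169 and 177 CPM in ACSS2-KO-3 and 133, 127 and 124 CPM in NC, and it rose by 0.44 ± 0.053 on the log2 scale. SF3A2, SF3B2 and SF3B4 rose as well, by 0.44, 0.61 and 0.63.

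SF3B5, a small subunit with the highest level per length of SF3B in NC (117 ± 3.28 CPM per kilobase), had 94.6, 94.6 and 111 CPM in ACSS2-KO-3 and 83.3, 81.1 and 78.7 CPM in NC. It rose by 0.30 ± 0.064 (adjusted p = 0.000164, edgeR), and by 0.18 with the offsets. SF3B1, the large subunit that clamps the branch site and is recurrently mutated in cancers, had 355, 376 and 337 CPM in ACSS2-KO-3 and 455, 449 and 439 CPM in NC. As counted it was lower in all 3 libraries (log2 fold change -0.33 ± 0.051, adjusted p = 2.74e-06, edgeR), but it rose with the offsets (0.26, adjusted p = 3.78e-06). SF3B6, which lies next to the branch adenosine, had 48.5, 51.5 and 48.4 CPM in ACSS2-KO-3 and 61.4, 55.1 and 58.6 CPM in NC. It turned in the same way, with log2 fold changes of -0.24 as counted (adjusted p = 0.00518, edgeR) and 0.22 with the offsets (adjusted p = 0.00269). Both genes have AT-rich transcripts, 41.0% and 42.5% GC.

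**Figure D2:**
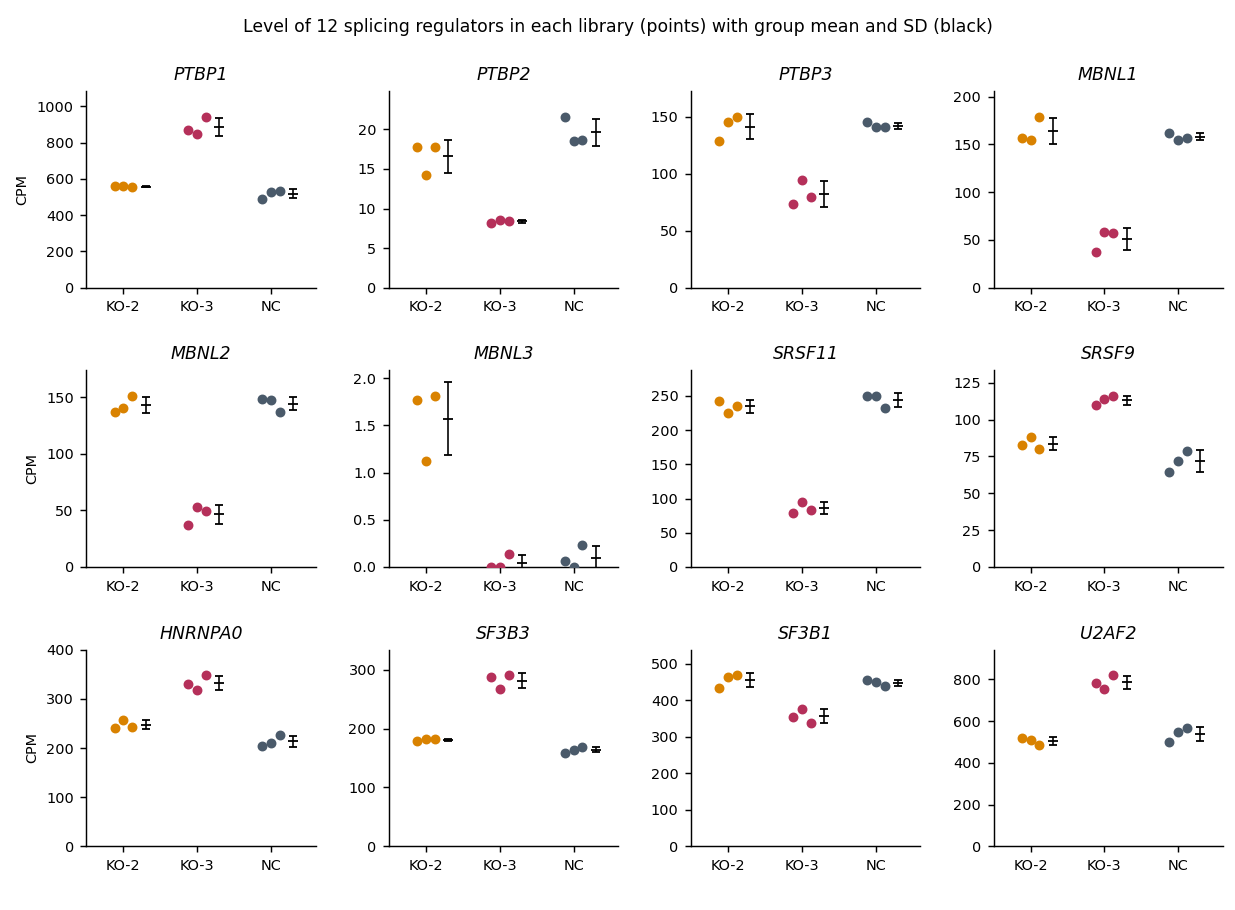
Level in CPM of 12 splicing regulators in each of the 9 libraries (coloured points; KO-2 and KO-3 are the ACSS2 knockouts), with the mean and SD of each group in black and the y axes starting at 0. PTBP1, SF3B3, U2AF2, SRSF9 and HNRNPA0 were higher in ACSS2-KO-3 than in NC with and without offsets, MBNL1, MBNL2 and SRSF11 lower in both; PTBP2, PTBP3 and SF3B1, lower here, were not lower by the test with GC content and length offsets, and MBNL3 stood at 1.12 to 1.81 CPM in ACSS2-KO-2, above every other library.

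U2AF is a pair of proteins, U2AF2 on the pyrimidine tract and U2AF1 on the AG at the end of the intron. U2AF2 had 785, 756 and 820.3 CPM in ACSS2-KO-3 and 499, 547 and 566 CPM in NC. It rose in ACSS2-KO-3 with no overlap (log2 fold change 0.55 ± 0.052, adjusted p = 6.1e-10, edgeR; 0.37 with the offsets). ACSS2-KO-2, at 521, 508 and 486 CPM, overlapped NC (-0.090, adjusted p = 0.379, edgeR). U2AF1L4, a shorter relative, was at 4.84 ± 0.613 CPM in ACSS2-KO-3 and 6.25 ± 0.568 CPM in NC. It fell in ACSS2-KO-3 (-0.37, adjusted p = 0.0446, edgeR), and the call was lost with RLE scaling, DESeq2 or no low-count filter (adjusted p = 0.0522, 0.102 and 0.0893) and without NC replicate 1, NC replicate 2, ACSS2-KO-3 replicate 1 or ACSS2-KO-3 replicate 2 (0.0872, 0.168, 0.0749 and 0.195).

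U2AF1 cannot be read by itself. The annotation holds a second copy, U2AF1L5 (GRCh38 chr21:6484623-6499261, minus strand), beside U2AF1 (chr21:43092956-43107587, minus strand), and all 3 annotated coding sequences of one are identical to those of the other. U2AF1 took 28.5%, 46.9% and 85.6% of their joint counts in ACSS2-KO-2, 24.9%, 84.1% and 57% of them in the ACSS2-KO-3 libraries, and 28.8%, 16.1% and 34.8% in NC. The shares ranged widely within each knockout group and less within NC. By itself U2AF1 had 7.45, 20 and 22.2 CPM in ACSS2-KO-3 and 7.86, 6.08 and 6.44 CPM in NC (log2 fold change 1.28 ± 0.33, adjusted p = 0.00129, edgeR), with overlapping groups. U2AF1L5 by itself had 14.8, 6.77 and 3.31 CPM in the ACSS2-KO-2 libraries, against 19.5, 31.8 and 12 CPM in NC (-1.32 ± 0.39, adjusted p = 0.0364, edgeR), also overlapping. DESeq2 called neither (adjusted p = 0.0572 for U2AF1 and 0.437 for U2AF1L5).

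The copies summed to 18.9 ± 5.39 CPM in ACSS2-KO-2, 30.9 ± 7.6 CPM in ACSS2-KO-3 and 27.9 ± 9.71 CPM in NC. The sum passed neither in ACSS2-KO-2 (log2 fold change -0.55, adjusted p = 0.0799, edgeR) nor in ACSS2-KO-3 (0.15, adjusted p = 0.49, edgeR). It did so without NC replicate 3 or ACSS2-KO-2 replicate 3 in ACSS2-KO-2 (-0.78 and -0.72, adjusted p = 0.00634 and 0.0429, edgeR), and without NC replicate 2 in ACSS2-KO-3 (0.44, adjusted p = 0.038, edgeR). ACSS2-KO-3 was above ACSS2-KO-2 (0.70, adjusted p = 0.00198, edgeR). The separate U2AF1 and U2AF1L5 calls therefore do not carry over to the pair.

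**Figure D3:**
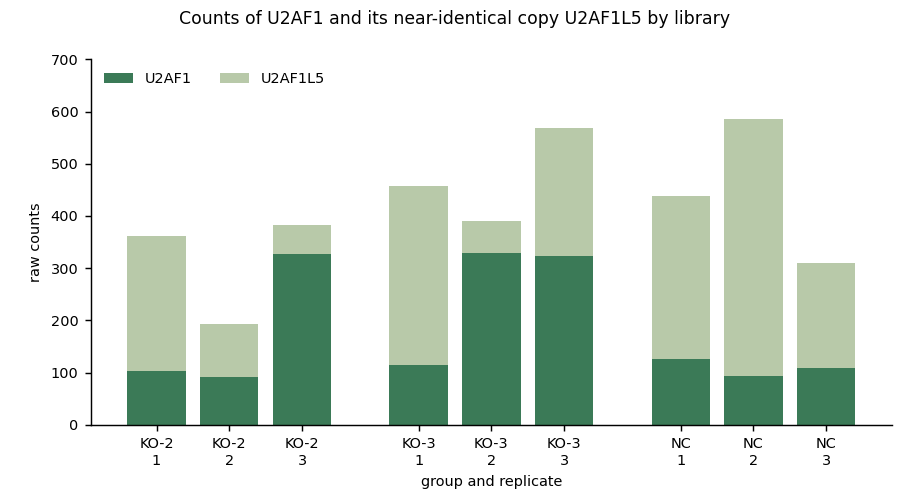
Raw counts of U2AF1 (dark) and U2AF1L5 (light) stacked for each library, in the order ACSS2-KO-2, ACSS2-KO-3 and NC. The dark share runs between 16.1% and 85.6% and differs among replicates of 1 group, while the stacked totals lie between 194 and 585 counts.

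The 3 PTBP genes encode polypyrimidine tract binding proteins, repressors of exon inclusion. PTBP1 is the form of most dividing cells, PTBP2 is known for neurons, and PTBP3 for blood cells. Each protein is built alike, but the coding sequences use different codons. Their whole transcripts hold 57.84%, 36.87% and 38.53% G and C in that order. The stretch printed below, bases 538 to 687 of the PTBP1 coding sequence, aligns without gaps in the 3 genes. It was chosen as the 150-base stretch where PTBP2 and PTBP3 share the most bases with PTBP1. It shows how the 3 genes differ in base composition, with every G and C in capitals. The sequences come from the principal transcripts of GENCODE release 29 (GRCh38), and the genes lie at chr19:797075-812327 (plus strand), chr1:96721665-96823738 (plus strand) and chr9:112217716-112333667 (minus strand).
PTBP1: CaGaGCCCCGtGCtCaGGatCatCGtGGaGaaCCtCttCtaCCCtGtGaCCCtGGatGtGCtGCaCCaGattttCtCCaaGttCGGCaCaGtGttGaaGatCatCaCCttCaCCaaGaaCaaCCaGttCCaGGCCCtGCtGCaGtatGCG
PTBP2: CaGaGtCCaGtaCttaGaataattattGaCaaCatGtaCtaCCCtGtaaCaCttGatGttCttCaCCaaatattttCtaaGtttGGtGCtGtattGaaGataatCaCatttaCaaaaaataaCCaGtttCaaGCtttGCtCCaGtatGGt
PTBP3: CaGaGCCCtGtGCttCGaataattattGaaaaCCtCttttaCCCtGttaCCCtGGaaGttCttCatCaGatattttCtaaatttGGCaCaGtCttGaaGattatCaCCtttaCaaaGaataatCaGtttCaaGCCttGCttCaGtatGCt
In this stretch PTBP1 holds 54.0% G and C, PTBP2 33.3% and PTBP3 36.7%. PTBP2 has the same base as PTBP1 at 110 of the 150 positions and PTBP3 at 119. Over the whole aligned coding sequence the shares are lower, 66.9% for PTBP2 and 70.6% for PTBP3.

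PTBP1 had 869, 849 and 943 CPM in ACSS2-KO-3 and 488, 527 and 534 CPM in NC. It rose with no overlap, by 0.78 ± 0.051 on the log2 scale (adjusted p = 3.5e-13, edgeR), and by 0.57 with the offsets. ACSS2-KO-2, at 559, 559 and 554 CPM, lay above every NC library but did not pass (0.11, adjusted p = 0.236, edgeR). PTBP2 had 8.23, 8.57 and 8.36 CPM in ACSS2-KO-3 and 21.6, 18.5 and 18.7 CPM in NC. As counted it was lower in all 3 libraries (-1.22 ± 0.11, adjusted p = 3.41e-10, edgeR), and with the offsets it did not pass (-0.22, adjusted p = 0.0791). In ACSS2-KO-2, at 17.8, 14.2 and 17.8 CPM, PTBP2 lay below every NC library but did not pass (-0.24, adjusted p = 0.19, edgeR). PTBP3 had 73.0, 94.3 and 79.3 CPM in ACSS2-KO-3 and 145, 141 and 141 CPM in NC. It too was lower as counted (-0.79 ± 0.072, adjusted p = 2.68e-10, edgeR) and did not pass with the offsets (0.033, 95% interval -0.081 to 0.147). The rise of the GC-rich paralogue held in both fits, and the decreases of the AT-rich ones did not.

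MBNL1 and MBNL2, muscleblind proteins that promote adult splicing patterns and are sequestered by repeat RNA in myotonic dystrophy, showed some of the largest decreases of the set. MBNL1 had 37.3, 58.4 and 57.2 CPM in ACSS2-KO-3 and 162, 155 and 157 CPM in NC. MBNL2 had 36.9, 52.6 and 49.7 CPM in ACSS2-KO-3 and 148, 147 and 137 CPM in NC. For both genes all ACSS2-KO-3 libraries were below all NC libraries, and in each the first ACSS2-KO-3 library was the lowest. The log2 fold changes were -1.63 ± 0.096 for MBNL1 (adjusted p = 4.97e-14, edgeR) and -1.63 ± 0.082 for MBNL2 (adjusted p = 2.02e-15, edgeR). With the offsets they remained past the threshold at -0.92 and -0.60. In ACSS2-KO-2 both overlapped NC, at 164 ± 13.5 CPM for MBNL1 and 143 ± 7.48 CPM for MBNL2.

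MBNL3 (chrX:132369317-132489968, minus strand), the third and least expressed muscleblind gene, was detected almost only in ACSS2-KO-2. It had 31, 17 and 30 counts in the ACSS2-KO-2 libraries, 0, 0 and 2 counts in ACSS2-KO-3, and 1, 0 and 4 in NC. The ACSS2-KO-2 total of 78 counts against 5 in NC is a ratio per read of 15.3 with a 95% counting interval of 6.27 to 48.3. The gene entered the test only through its ACSS2-KO-2 counts, so no p is given. Even in ACSS2-KO-2 it averaged 1.57 ± 0.389 CPM, and its groups did not overlap with NC. SRSF12, an SR protein with too few counts for the test, had 12, 15 and 9 counts in ACSS2-KO-2, 2, 1 and 0 counts in ACSS2-KO-3, and 1, 4 and 5 in NC. Its ratio per read was 3.52 (1.71 to 7.96) for ACSS2-KO-2 against NC, and with no filter on low counts the adjusted p was 0.0764 (edgeR). A list of 10 transcripts picked in earlier results of these data for being near 0 in NC summed to 50.0 to 52.7 CPM in ACSS2-KO-2, 3.46 to 4.5 CPM in ACSS2-KO-3, and 0 in all NC libraries, where 10 of 10 were at 0. The NC level is what chose that list, and all 10 had counts in ACSS2-KO-3, where the totals of MBNL3 and SRSF12 were no higher than in NC. The 12 neuronal markers summed to 60.6 to 65.0 CPM in ACSS2-KO-2, 27.8 to 35.0 CPM in ACSS2-KO-3 and 54.2 to 63.8 CPM in NC. Of them, NEFL and NEFM were called higher in ACSS2-KO-2, and STMN2, ELAVL4 and GAP43 were at 0 in every group. NEFL was at 0 in NC and entered the test only through knockout libraries, so its call is no support for a difference. The part of either list in the MBNL3 result was not tested.

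QKI, a STAR-family protein that controls splicing and circular RNA formation, had 134, 159 and 144 CPM in ACSS2-KO-3 and 192, 186 and 191 CPM in NC. It was lower as counted (log2 fold change -0.38 ± 0.058, adjusted p = 2.24e-06, edgeR) and rose with the offsets (0.50, adjusted p = 1.6e-11). RBFOX2, which represses or activates exons depending on the side it binds, was at 127 ± 1.87 CPM in ACSS2-KO-3 and 134 ± 5.73 CPM in NC. It did not pass as counted (-0.079) and fell with the offsets (-0.20, adjusted p = 0.00316). RBFOX1, the form of neurons and muscle, had 0 counts in all 9 libraries, which allows up to 0.206 CPM in the library with the highest floor (3 counts). HNRNPCL1, HNRNPCL2, HNRNPCL3 and HNRNPCL4, copies related to HNRNPC, were also at 0 counts in every library, and the read-through gene HNRNPUL2-BSCL2 had 1 count in ACSS2-KO-3 and 1 in NC.

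The knockouts also differed from each other. Between ACSS2-KO-3 and ACSS2-KO-2, 46 of 56 members passed (82.1%), beside a background of 61.7% of all tested genes, with 28 higher and 18 lower in ACSS2-KO-3, where 31.2% of all genes were higher and 30.5% lower. In genes averaging at least 20 CPM, 44 of 49 members (89.8%) and 78.8% of all genes passed. With the offsets 37 members were higher and 9 lower, beside 56.5% of all genes (34.1% higher and 22.4% lower), which moved the higher share of the members' calls to 80.4%, against 60.9% without them. MBNL1 and MBNL2 fell by 1.68 and 1.62 on the log2 scale relative to ACSS2-KO-2, SRSF11 by 1.44, and PTBP1 rose by 0.67 (edgeR, adjusted p = 2.8e-14, 2.47e-15, 9.72e-17 and 8.05e-12). HNRNPA0 and SRSF9, which rose in both knockouts, were higher still in the ACSS2-KO-3 libraries, by 0.43 and 0.44 relative to ACSS2-KO-2 (adjusted p = 8.6e-08 and 1.32e-06, edgeR). SRSF4 rose by 0.25 as counted and did not pass with the offsets (0.062, adjusted p = 0.26, edgeR). MBNL3 had 2 counts over the ACSS2-KO-3 libraries and 78 over those of ACSS2-KO-2. Its lower call is among those counted in both fits. It entered the test only through ACSS2-KO-2, so that call is no support for a difference. No member rose in one knockout and fell in the other relative to NC.

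Members with transcripts of at least 55% GC mostly rose in ACSS2-KO-3 as counted, and those under 40% GC mostly fell. The tested members span 36.8% to 66.6% GC in their principal transcripts, with a median of 45.1%, below the 49.4% of all tested genes. Of the 10 members under 40% GC, 2 rose and 7 fell, with a median log2 fold change of -0.63, and of the 10 members of at least 55%, 8 rose and 1 fell, with a median of 0.46. All tested genes ran the same way: 81.1% of those under 40% GC fell, and 48.7% of those of at least 55% rose. From 40 to 45% GC, 6 of 17 members rose and 6 fell, beside 13.2% and 49.9% of all tested genes. Across the 56 members, Spearman's rho between GC content and log2 fold change was 0.593 (Pearson's r 0.571), and across 15804 tested genes it was 0.5 (Pearson's r 0.46). Genes share libraries and are not independent replicates, so these are descriptions. In ACSS2-KO-2 against NC the members' rho was 0.0488. With the offsets the rho in ACSS2-KO-3 was 0.0267, a low value that was built in, because the offsets are curves of the same GC content. Whether this trend arose in the cells or in the libraries was not tested. With the offsets, the members furthest below 0 included MBNL1 (-0.92), SRSF5 (-0.70), SRSF11 (-0.64), MBNL2 (-0.60) and HNRNPH1 (-0.56), and those furthest above it included HNRNPA0 (1.25), SRSF3 (1.03), HNRNPLL (0.91) and SRSF6 (0.90).

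**Figure D4:**
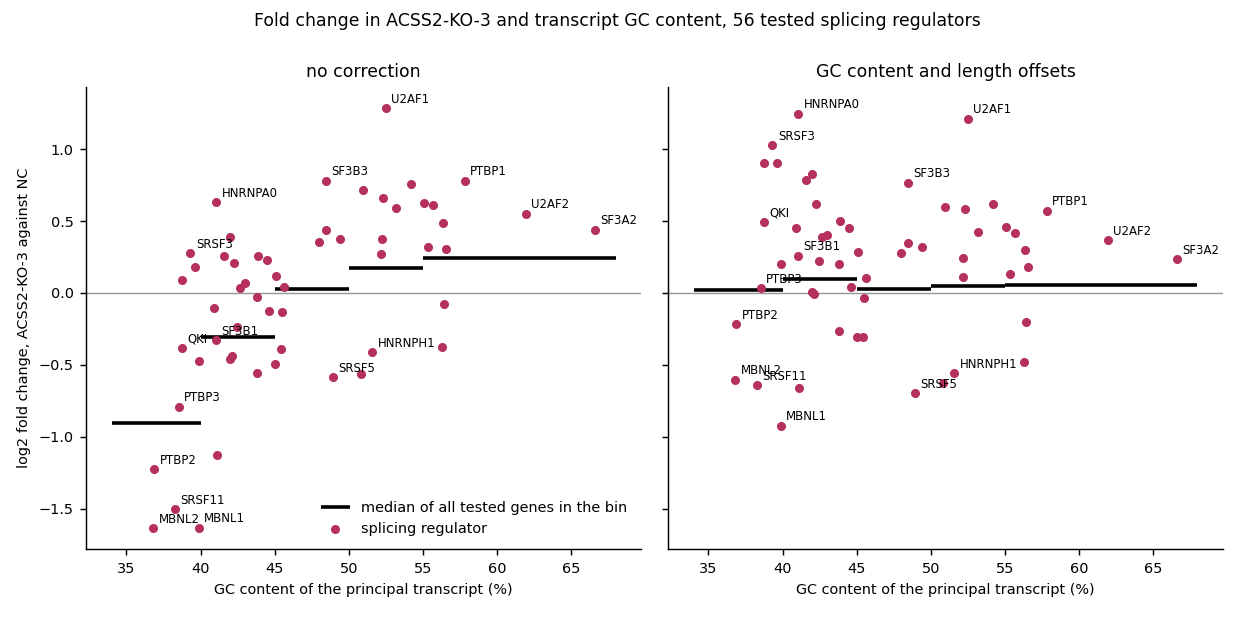
Log2 fold change in ACSS2-KO-3 against NC (y axis) against the GC content of each tested member's principal transcript in percent (x axis), without correction (left) and with GC content and length offsets (right). Black lines are medians of all tested genes in bins of GC content (under 40%, 40 to 45%, 45 to 50%, 50 to 55% and above), drawn over the members' range. On the left the members' rho is 0.593 and on the right 0.0267, where the offsets remove a trend with GC content by design. SRSF11, MBNL1 and MBNL2 lie below 0 in both panels while QKI and SF3B1 change sides.

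Annotated decay transcripts were common in the set. GENCODE lists at least 1 nonsense-mediated decay transcript for 12 of 12 SRSF genes, both TRA2 genes and 14 of 27 hnRNP genes. In all it lists them for 36 of the 56 tested members and 5505 of 15804 tested genes. All members are protein-coding, whereas 12910 of the 15804 had a coding sequence in the transcript used. The shares are therefore not like for like. The gene-level counts hold no junctions, so the share of such transcripts was not analysed here. Among 15 factors of the decay pathway itself, 8 rose and 4 fell in ACSS2-KO-3. With the offsets 11 rose and 3 fell, beside 35.6% and 24.2% of all genes. The 80.0% that passed as counted compares with 63.3% of all genes and 78.9% of those averaging at least 20 CPM. UPF1, the central helicase of the pathway, rose by 0.81 on the log2 scale (159.7 CPM in ACSS2-KO-3, 91.0 CPM in NC) and SMG5, an adaptor for decay, by 0.66. UPF2, which bridges UPF1 to exon junctions, fell by 1.44 (16.1 CPM in ACSS2-KO-3, 43.7 CPM in NC) and UPF3B by 1.38. In ACSS2-KO-2 EIF4A3 of the 15 passed (0.19, adjusted p = 0.0284, edgeR), and 3 of the 15 did with the offsets, beside 6.65% and 9.65% of all genes.

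The partners of the splicing regulators, taken from lists that exclude the members, moved in both directions. In ACSS2-KO-3, of 34 Sm proteins and proteins of the U1, U4, U5 and U6 snRNPs, 25 rose and 3 fell as counted, and 27 rose and 1 fell with the offsets. PRPF8, the core protein of the U5 snRNP, rose by 0.82 on the log2 scale (1109.9 CPM in ACSS2-KO-3, 627 CPM in NC), and SART1, of the tri-snRNP, by 0.77. LSM8 and LSM5, whose proteins belong to the U6 snRNP, fell by 0.62 and 0.26 as counted and rose with the offsets (0.41 and 0.86). Of 18 other U2 and branch-site factors, 8 rose, led by PUF60 (0.80) and the SF3B subunit PHF5A (0.78), and 5 fell, led by U2SURP (-2.01) and CWC22 (-2.00), which remained low with the offsets (-0.88 and -1.34). As counted 82.4% of the 34 and 72.2% of the 18 passed, beside 63.3% of all genes and 78.9% of those averaging at least 20 CPM. Over all genes 31.2% were called higher and 32.1% lower, or 35.6% and 24.2% with the offsets. The median log2 fold changes of the snRNP and branch-site lists were 0.38 and 0.035 (0.40 and 0.37 with the offsets), beside -0.037 over all tested genes (0.053 with the offsets).

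Of 29 SR-related and nuclear speckle proteins, 10 rose and 13 fell (10 and 12 with the offsets), so that 79.3% passed, beside 63.3% of all genes and 78.9% of those averaging at least 20 CPM. PPIG, a cyclophilin with an RS domain, fell by 2.44 on the log2 scale (14.1 CPM in ACSS2-KO-3, 76.5 CPM in NC) and SREK1, a regulator of SR proteins, by 2.04 (39.9 and 165 CPM). Both remained low with the offsets (-1.17 and -0.995). SAFB and SAFB2, scaffold attachment factors, rose by 0.52 and 0.51. Among 11 enzymes and carriers that phosphorylate, dephosphorylate or import SR proteins, 2 rose and 6 fell, and with the offsets 5 rose and 5 fell. As counted 72.7% of the 11 passed, beside the same 63.3% and 78.9%. The kinase PRPF4B fell by 1.83 (44.3 CPM in ACSS2-KO-3, 158 CPM in NC) and CLK4, which phosphorylates SR proteins in the nucleus, by 1.20. The phosphatase PPP1CA rose by 0.68 and TNPO3, the importin of SR proteins, by 0.21. Of 38 tested RNA-binding regulators outside these families, 23 rose and 8 fell (20 and 7 with the offsets). As counted 81.6% of the 38 passed, again beside 63.3% and 78.9%. With the offsets 35.6% of all genes were called higher and 24.2% lower. KHSRP rose by 0.74 and MSI1 by 0.73, a call that MSI1 lost with the offsets (0.51, adjusted p = 0.107). TIA1, which aids U1 recruitment, fell by 1.61. MATR3 fell by 1.73 at 2.6 CPM in ACSS2-KO-3 and 8.65 CPM in NC, and its value is uncertain because several entries of the table carry that symbol.

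In ACSS2-KO-2, 2 of the 29 SR-related and speckle proteins passed, 1 of 18 branch-site factors, 1 of 34 snRNP proteins and 3 of the 38 other RNA-binding regulators, beside 6.65% of all genes. With the offsets 3, 2, 2 and 7 of them passed in that order, beside 9.65% of all genes, and LUC7L3 of the speckle list was among those lower (-0.21, adjusted p = 0.0113, edgeR). SREK1 (-0.33) and DDX39B (-0.25) fell among the speckle proteins, SMNDC1 (-0.25) among the branch-site factors and PRPF3 (-0.38) among the snRNP proteins. MSI1 (1.33) and NOVA2 (0.63) rose and TIA1 (-0.28) fell among the other RNA-binding regulators, and none of the 11 kinases and their partners passed at an adjusted p of 0.05 in edgeR, DESeq2 or limma-voom, with 4 at an unadjusted p under 0.05 in each.

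**Figure D5:**
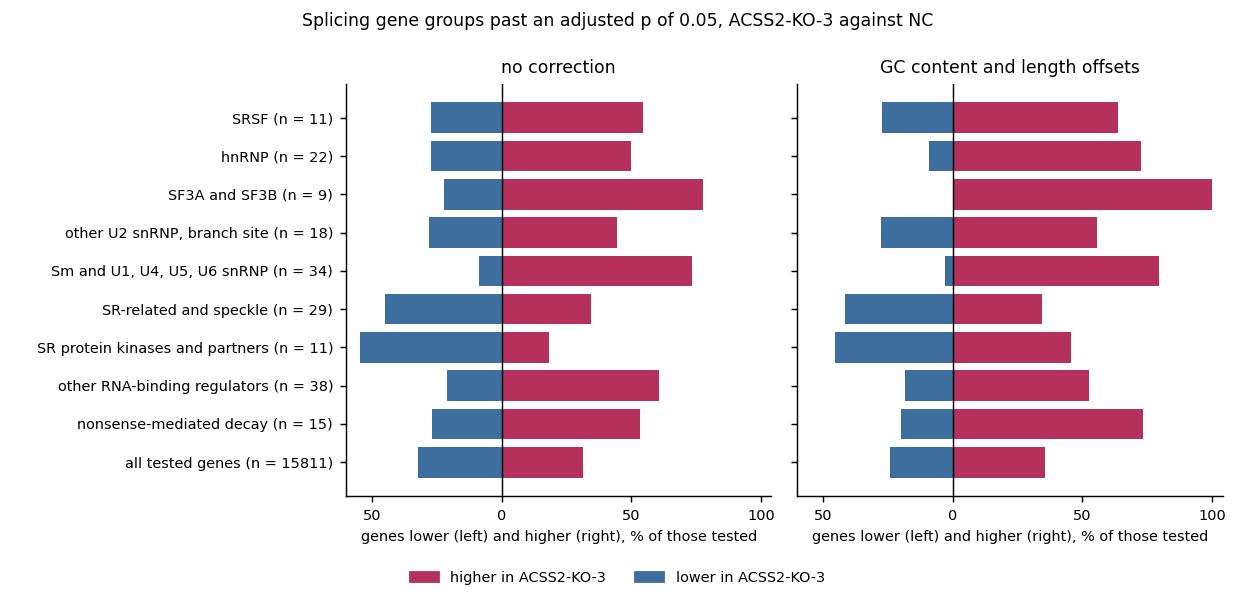
Percent of tested genes higher (right of 0) and lower (left of 0) in ACSS2-KO-3 than in NC at an adjusted p under 0.05 in edgeR, by family or list, with the number tested in brackets, without correction and with GC content and length offsets. SF3A and SF3B genes had 7 higher and 2 lower as counted and 9 higher with the offsets, and snRNP proteins had 25 higher and 3 lower as counted and 27 and 1 with the offsets. Of all tested genes, 31.2% were higher and 32.1% lower as counted, and 35.6% and 24.2% with the offsets.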

How the data were processed

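Read counts per gene were deposited by the authors as 1 table for 9 polyA RNA-seq libraries of PANC-1. The submitters' processing notes name GRCh38, cutadapt 1.9, HISAT2 2.2.1, StringTie 2.1.6, DESeq2 and edgeR without roles; which tool counted, and whether by strand, is not given in the sources used here. Levels per kilobase use the length in bases of each gene's principal transcript in the GENCODE annotation.

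Groups and replicate numbers came from the titles, since the treatment labels number the knockouts differently. Members, lists and tests were chosen with earlier results of these data known. Genes passing edgeR's expression filter (minimum count 10, total 15) were fitted across all 3 groups with TMM scaling and the quasi-likelihood test (edgeR 4.0.16, R 4.3.3), with Benjamini-Hochberg adjustment over all 15811 genes at 0.05. All 58735 genes matched GENCODE release 29 by identifier and position; GC content and length are those of the principal transcript. Offsets were spline curves (5 degrees of freedom) of both, fitted per library. Simulated data had 200 genes changed 2-fold. The test recovered 100.0% of them for ACSS2-KO-3 against NC, over 15601 genes, and called 0.0909% of the unchanged ones. The changed genes were drawn only from those above a minimum level, and every gene had the same spread. High recovery was therefore built in. With a GC trend added to such data, 63.1% of unchanged genes were called without offsets (15604 genes) and 0.0844% with them (15597 genes) in that comparison. The added trend was a straight line in the same GC values that the offsets fit, so its removal was built in. Both simulations check the code only, and they cannot tell whether the trend in ACSS2-KO-3 is technical. Text names the highest per length of the larger families, the largest changes, every ACSS2-KO-2 call, members that turn with the offsets, and 2 genes a list and direction. SRSF3, SRSF5, SRSF6, HNRNPH1 and other members outside that rule were named after their values were seen, to account for each family. Alternatives were RLE scaling, no filter, DESeq2 1.42.0, limma-voom 3.58.1, the replicate block, the offsets, 2-group fits and leaving out each library; the summed U2AF1 pair was added after seeing the data. Intervals and floors (3 counts, 95%) cover counting error only.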

Additional observations from a re-analysis of the deposited data

How the results depend on the processing

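For ACSS2-KO-3 against NC, the count of 45 members stayed at 42 to 48 under the other settings, and the count of 46 between the knockouts stayed at 45 to 49. Leaving out 1 library at a time gave 42 to 46 and 45 to 48 members and 9296 to 9794 and 9109 to 9634 genes. For ACSS2-KO-2 against NC, where 4 members and 1052 genes passed, leaving out 1 library gave 1 to 4 members and 666 to 979 genes. The members numbered 1 without NC replicate 1, NC replicate 2 or ACSS2-KO-2 replicate 2, and the genes 666 without the last of these; fewer samples enter those fits. In the 2-group fit 7 members passed, and with the offsets and the replicate block 7 members and 1645 genes did; the cause was not tested.

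Replicate numbers do not pair the libraries: residuals of libraries with the same number correlated between -0.0412 and 0.0557. With the replicate block 4, 45 and 48 members passed for ACSS2-KO-2 and ACSS2-KO-3 against NC and between the knockouts, in that order.

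Among values that passed as counted or in the alternative, the log2 fold changes that turned did so with the GC content and length offsets, with and without the block, and in no other setting. Against NC they became, in ACSS2-KO-3, SF3B1 0.26 (0.26 with the block), SRSF7 0.45 (0.45), HNRNPR 0.20 (0.20), QKI 0.50 (0.50), HNRNPDL 0.043 (0.044), HNRNPH3 0.20 (0.20), PTBP3 0.033 (0.030), TRA2A 0.010 (0.012) and SF3B6 0.22 (0.22). Against ACSS2-KO-2 they became HNRNPA1 0.32 (0.32 with the block), SF3B1 0.27 (0.27), SRSF7 0.47 (0.47), HNRNPR 0.17 (0.17), QKI 0.54 (0.54), HNRNPDL 0.0060 (0.0068), HNRNPH3 0.19 (0.19), PTBP3 0.035 (0.034), HNRNPH2 0.13 (0.13), TRA2A 0.13 (0.13) and SF3B6 0.23 (0.23). Depth limits MBNL3, SRSF12, U2AF1 and U2AF1L5.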
